A study of Mus musculus with 5 samples.

Results

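The Myc network is described here through its H3K27ac peaks in mouse bone marrow stem and progenitor cells deleted for Mll3 and Mll4. Its 10 genes (Myc, Pvt1, Mycn, Mycl, Max, Mxd1, Mxd4, Mxi1, Mnt and Mga) were taken by name from a table of 49943 genes. Their peaks were those at an end of the gene (touching the 1 kb on either side), in its body, or reaching within 50 kb of it. For Myc, all peaks on chromosome 15 from 61.9 to 64 Mb were added, a stretch that takes in Pvt1 and the distant blood enhancers beyond it. Together these rules gave 73 of the 22948 peaks of the series.

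The series is a single peak list for 4 H3K27ac libraries over 1 input library. Every library, the input included, came from CD45.2+Lineage-Sca1+Kit+ bone marrow cells that the labels call HSC/MPP (haematopoietic stem cells and multipotent progenitors), with the genotype Mll3/4 deleted. Mll3 and Mll4 are histone methyltransferases that act mainly at enhancers. H3K27ac, acetylation of lysine 27 of histone H3, marks active promoters and enhancers and was measured by ChIPmentation, in which antibody-bound chromatin is cut and tagged with adapters by the transposase Tn5. The labels give neither the age nor number of the animals, nor the Cre line behind the deletion. Cells with intact Mll3 and Mll4 were not analysed here, and the list holds no value of a single library. Nothing below is therefore a gain or loss, no value has a replicate error, no test between groups was possible, and the read depth is unknown.

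The signal value and q quoted for each peak are the authors'. The list has no header, and from the order of its columns and their values the signal value was read as an enrichment ratio of H3K27ac over background, and q as the q-value. Over the whole list signal values had a median of 3.27 (quartiles at 2.69 and 4.62), the median width was 854 bp, and 21.2% of peaks had a q above 0.05. Genes of the sorted phenotype were checked at their ends. Kit (signal value 5.66), Ptprc, which encodes CD45 (10.8), and Flt3 (6.58) had end peaks, as did 2 others of the 12 sorted and stem cell genes, Cd48 and Slamf1. The genes of that list without one included Ly6a, which encodes Sca1, Cd34, Procr, Mecom, Hlf and Hoxb5. Over all protein-coding genes the share with an end peak was 36.2%. End peaks were present at 8 of 10 B-lineage genes, where the strongest signal value was 13.6 at Blnk and where Ms4a1 and Cd22 had none. They were present at 1 of 6 T-lineage genes (Cd3d) and at 0 of 6 myeloid and 0 of 6 erythroid and megakaryocyte genes. The part of B-lineage chromatin in the values below was not tested.

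Myc is a basic helix-loop-helix leucine zipper transcription factor that drives ribosome production, metabolism and cell division. It binds DNA as a dimer with Max, at the E-box CACGTG. Max also pairs with Mxd1, Mxi1, Mxd4, Mnt and Mga, which repress genes through the same sites. Mycn and Mycl are paralogs of Myc. In blood stem and progenitor cells Myc is known to depend on a cluster of enhancers far beyond the neighbouring non-coding gene Pvt1.

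End peaks were found at 8 of the 10 genes, and the other 2, Mycn and Mycl, had none in the body either. Among the 9 protein-coding ones 7 had an end peak, beside 36.2% of the 21887 protein-coding genes of the table. A peak at an end or in the body was found for the same 7 of 9, beside 43.8% of protein-coding genes. Pvt1 also had an end peak, as did 13.9% of the 12727 lncRNA genes. In order of their strongest end peak, the genes were Max, Mnt, Pvt1, Mxi1, Mxd4, Myc, Mxd1 and Mga, with signal values from 9.34 down to 3.18. The median over the 7 protein-coding ones was 4.56, beside 4.71 over the 7929 protein-coding genes with an end peak. With Pvt1 it was 4.79. The number of the 10 genes with an end peak was 7 with a −log10 q of at least 5 (24.0% of all protein-coding genes), 8 with a q of at most 0.05 (34.4%) and 6 with a signal value of at least 4 (23.2%). It was 8 with windows of 2.5 kb (39.3%) and 6 when the summit had to lie in the window (33.3%). Each of these counts includes the lncRNA gene Pvt1, whereas the shares in brackets are over protein-coding genes only. Against the 7929 protein-coding genes with an end peak, Max and Mnt stood at percentiles 91.7 and 87.6 and Pvt1 at 77.6. Mxi1 stood at 55.4, Mxd4 at 47.2, Myc at 45.0, Mxd1 at 34.6 and Mga at 17.7. The order has no replicate spread behind it, so neighbours in it cannot be told apart from equals. In all, 34 peaks lay at or in the 10 genes, 8 of them with a q above 0.05, and 17 more lay within 50 kb outside, which made 51.

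**Figure D1:**
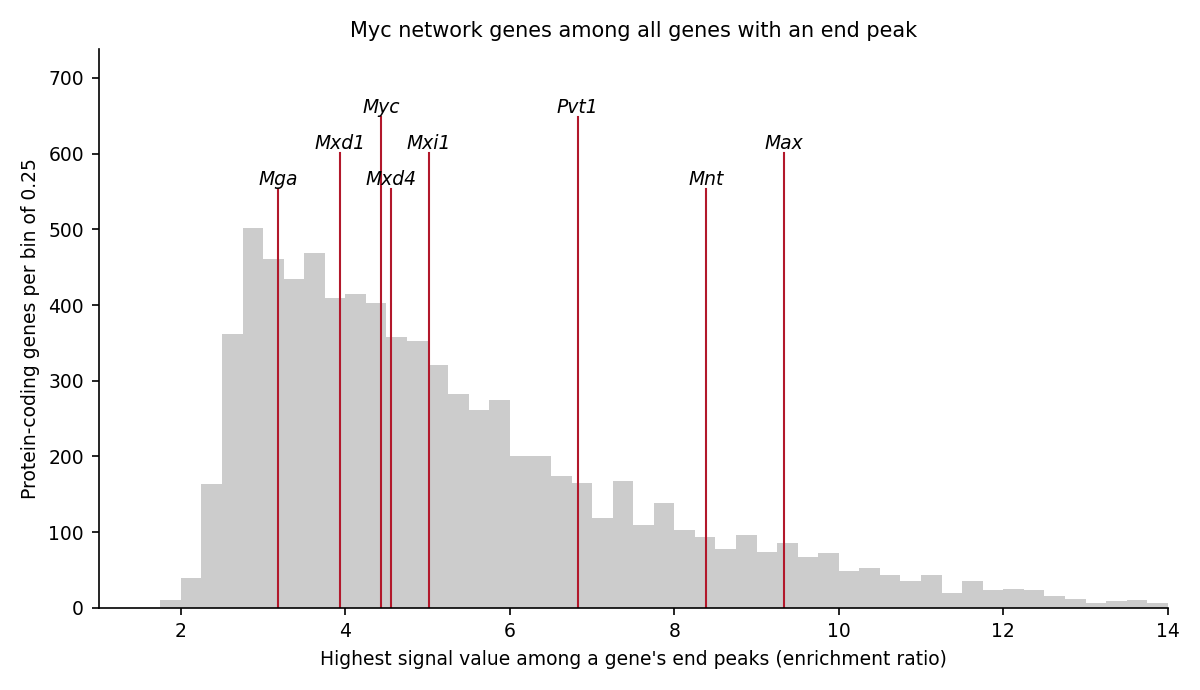
Histogram of the highest signal value (enrichment ratio) among the end peaks of each protein-coding gene that has one, with the 8 genes of the Myc network marked by red lines; the axis stops at 14. Max and Mnt lie in the upper tail at 9.34 and 8.39, whereas Myc lies near the middle at 4.44.

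Myc itself carried 2 peaks. The first, on chromosome 15 from 61985742 to 61986858, began inside the gene. Its summit was 1.08 kb past the low end, which is the start of Myc, a gene known to be read towards higher coordinates, as is Pvt1. Its signal value was 4.44 and its −log10 q 6.93. The second, from 61987416 to 61987956, reached a signal value of 3.24 and a −log10 q of 3.22. Both ranked within the ordinary range of the list, at percentiles 72.8 and 49.2 of all signal values. Because the first summit lay just past 1 kb, Myc no longer counted as having an end peak when the summit itself had to fall in the window. Below the gene, the only peak within 50 kb was a weak one at -35.1 kb (signal value 2.32, q of 0.395).

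Between Myc and Pvt1, a distance of 47.6 kb, there was no peak. The start of Pvt1 then carried the strongest peak of the whole window, from 62037444 to 62046401. Its signal value was 6.82, its −log10 q 17.97 and its width 8958 bp, at percentile 99.8 of all widths. The peak ran from just below the low end of Pvt1 into the gene. Of the summed signal value times width in the window, 58.2% lay within Pvt1, most of it in this peak, and 3.67% lay in Myc.

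The body of Pvt1, which is 222.2 kb long, held 16 further peaks with signal values from 2.15 to 3.85. None of these matched the peak at its start. The strongest was 2455 bp wide, from 62138572 to 62141026 (signal value 3.85, −log10 q 4.98). It ended a group of 6 peaks between 62121763 and 62141026, the group with the most peaks in the gene when distal peaks, those with a summit over 1 kb from every protein-coding gene end, were joined at up to 12 kb apart. The next strongest lay from 62103877 to 62105351 (3.52) and from 62205583 to 62207822 (3.48). Another 4 peaks followed within 50 kb past the high end of Pvt1, of which 3 lay within 5 kb of it, with signal values from 2.23 to 3.24.

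**Figure D2:**
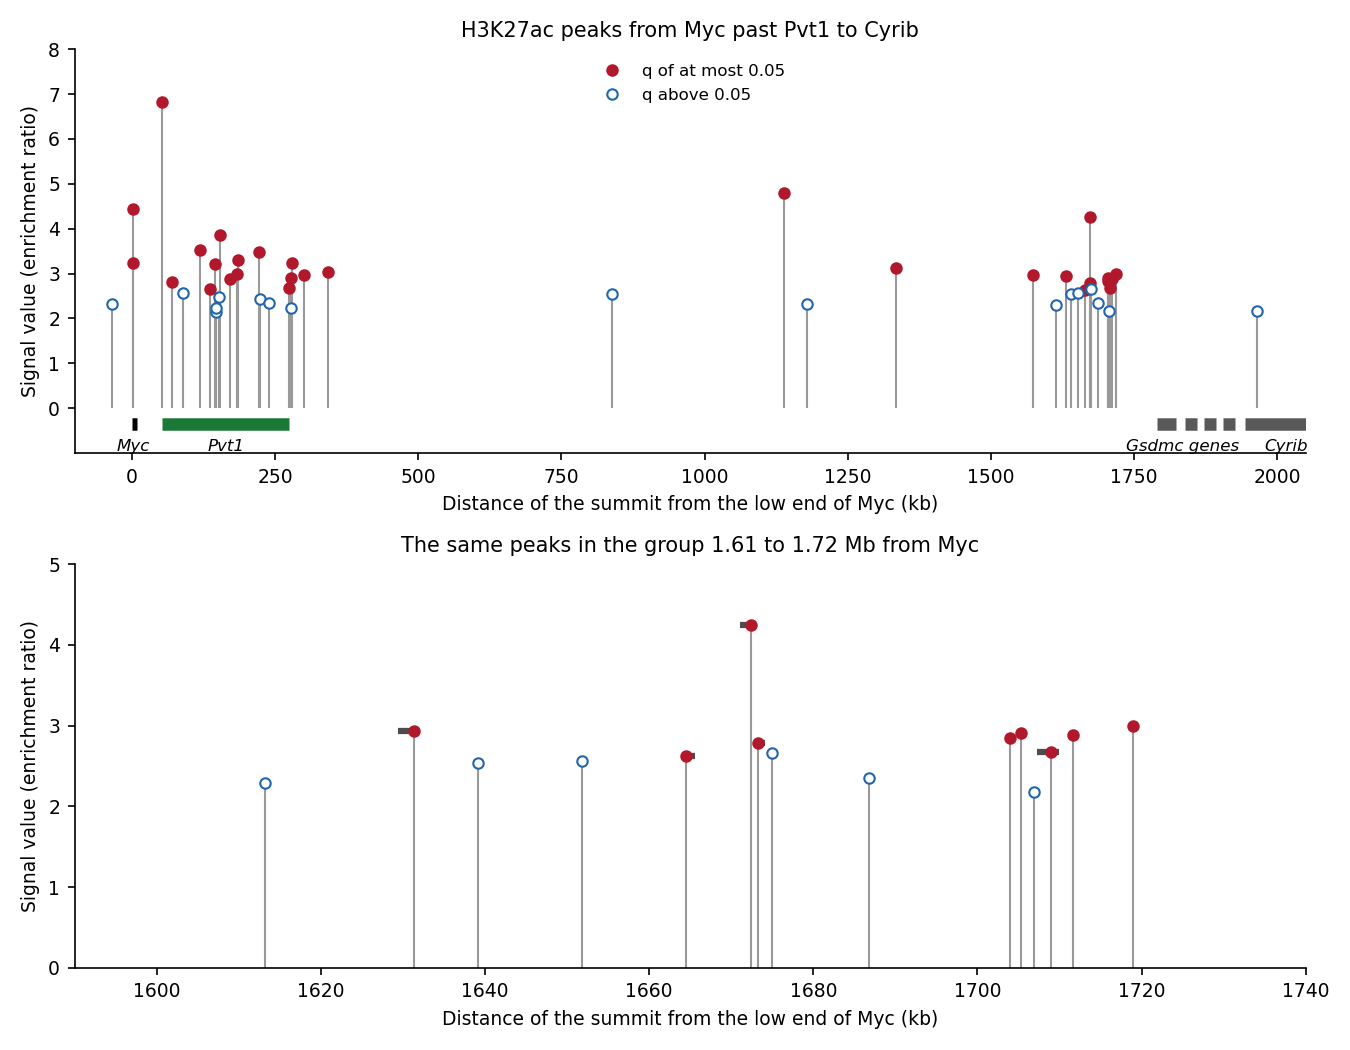
Signal value (enrichment ratio) of each peak against the distance of its summit from the low end of Myc in kb, over the whole window (top, with gene bodies as bars) and over the far group (bottom, with grey bars for peak widths); filled points have a q of at most 0.05 and open points a q above it. The peaks gather at Myc and Pvt1 and again between 1613 and 1719 kb, with the tallest, 6.82, at the start of Pvt1.

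Past Pvt1 the chromosome is a gene desert up to Gsdmc, the first of 4 gasdermin C genes. After a peak that ended 343.8 kb from the low end of Myc (signal value 3.03), no peak was listed for 494.6 kb. A single weak peak at 839.1 kb (signal value 2.54) was followed by another 298.1 kb without any. An isolated stronger peak came next, from 63122612 to 63123899, 1138 kb from Myc and inside the lncRNA gene Gm30159. Its signal value was 4.79 and its −log10 q 9.03, above those of the peak at the start of Myc. The other peaks before the far group, at 1179, 1334 and 1574 kb, had signal values of 2.32, 3.12 and 2.96.

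The far interval, fixed as 1.6 to 1.9 Mb past the low end of Myc, held 15 peaks, all of them between 63598254 and 63704894. They spanned 106.6 kb, with a median of 6.11 kb between neighbours, and touched no end of an annotated gene. In the 100 kb tile that runs from 63600001 to 63700000 there were 13 summits. At least as many were found in 0.261% of the 27206 tiles of the genome, 31.9% of which had any summit. With a −log10 q of at least 5, or a signal value of at least 4, the tile kept 1 summit, a number reached by 19.2% and 18.4% of tiles. In the list as deposited this was the tile of the window with the most summits. The next, from 62100001 to 62200000 in Pvt1, had 10 summits, a number reached by 0.687% of tiles.

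The far peaks were many but weak. Their median signal value was 2.67, beside 2.81 for the 17 peaks in Pvt1, and 6 of the 15 had a q above 0.05. The strongest, from 63656458 to 63657905 and 1672 kb from Myc, had a signal value of 4.25 and a −log10 q of 6.27. The other 14 lay between 2.17 and 2.996. The widest was 2797 bp, from 63692536 to 63695332, with a signal value of 2.67 and a −log10 q of 2.40. Another of 2691 bp lay from 63614739 to 63617429, with a signal value of 2.94.

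Joining distal peaks at most 12 kb apart split the far group into 1 single peak and 3 clusters. The first cluster, 1629 to 1639 kb from Myc, had 2 peaks. The middle one, 1651 to 1687 kb from Myc, had 6 peaks and held the strongest. The last, 1704 to 1720 kb from Myc, also had 6. By summed signal value times width, the middle and last clusters ranked 1097 and 1261 of the 8972 clusters of the list, within the top 12.2% and 14.1%. The cluster at the start of Pvt1 ranked 158, within the top 1.76%. No map of the known enhancer modules was used here, so single peaks were not matched to modules.

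The far group ended 71.1 kb short of Gsdmc. None of the 4 gasdermin C genes overlapped a peak. The single remaining peak of the window, at 1964 kb inside Cyrib, a regulator of the Rac1 GTPase, was weak (signal value 2.17, q of 0.395). Cyrib runs on past the edge of the window and overlapped 8 peaks over its whole length. In all, the window held 46 peaks in 2.1 Mb, or 21.9 per Mb, beside 10.4 per Mb on chromosome 15 and 8.43 per Mb in the genome. A q above 0.05 was attached to 17 of them, or 37.0%, against 21.2% in the whole list. Signal values of 4 or more were reached by only 4 of the 46. In the whole list a signal value of 3.94 stood at percentile 65.0 and one of 4.25 at percentile 70.3. The rates per Mb are given only for the list as deposited.

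The stretch from Myc to Gsdmc was compared with all gaps of at least 1 Mb between neighbouring protein-coding genes. Of 296 such gaps, 40.5% held a summit. The gap past Myc, 1.79 Mb long, held 42 summits, 7.14% of the 588 in all gaps. Only the gap from Adam6a to Zfp386 on chromosome 12, which spans immunoglobulin heavy chain segments, held more, with 118. The third was the gap from Bcl11a to Fancl, with 20. Per Mb, the Myc gap again ranked 2, at 23.5. Without the peaks in Pvt1 it held 25 and kept rank 2. With a q of at most 0.05, where 35.5% of the gaps held a summit, it held 27 and ranked 2 again. Its place rested on number rather than strength. With a −log10 q of at least 5 only 3 of its peaks were left and it ranked 7, together with 3 other gaps. The same count and rank were found for signal values of 4 or more. Any summit was left in 19.9% of the 296 gaps under the first of these thresholds and in 19.3% under the second.

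**Figure D3:**
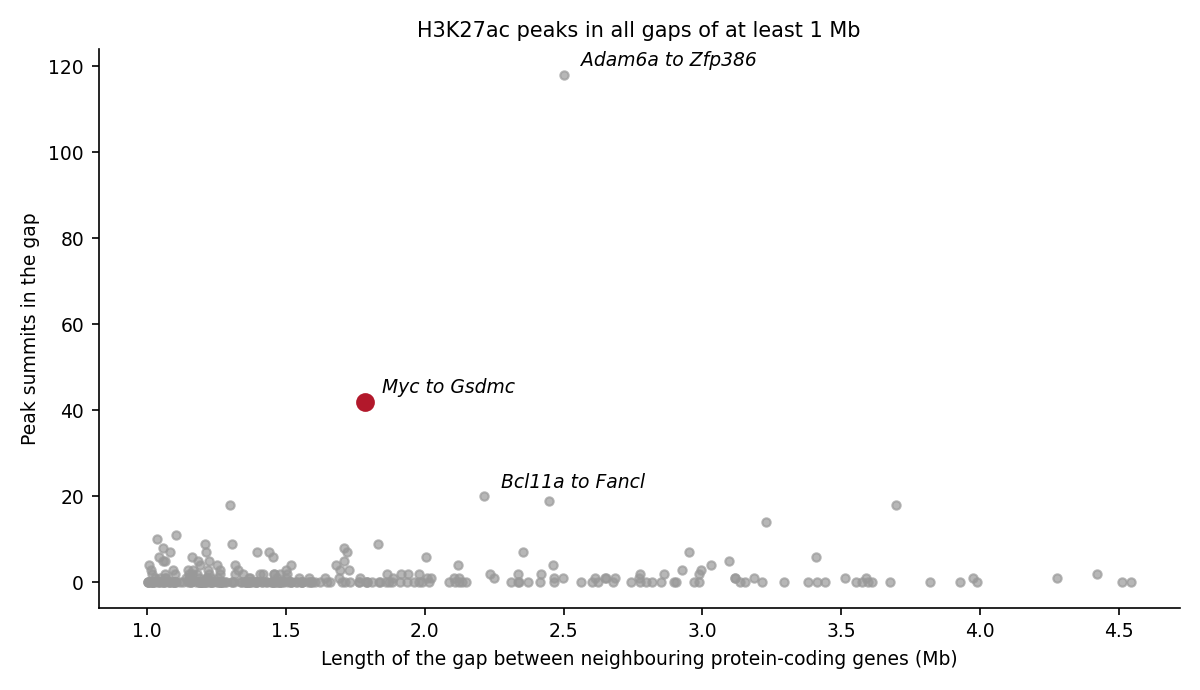
Number of peak summits against the length in Mb of each of the 296 gaps of at least 1 Mb between neighbouring protein-coding genes, with the gap past Myc in red. It holds 42 summits, below the 118 of the heavy chain gap and above the 20 of the gap past Bcl11a.

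Peaks more than 100 kb from every protein-coding gene end and outside such genes were also set side by side. The Myc gap held 33 of them, with a median signal value of 2.78 (quartiles at 2.48 and 3.12) and a median width of 739 bp. This set is not the far group: it includes peaks in the body of the lncRNA gene Pvt1. It leaves out the last far cluster, of 6 peaks from 63689114 on, which lies within 100 kb of Gsdmc. The 1155 others had a median of 2.90 (2.54 to 3.67) and a median width of 781 bp. A signal value of at least 4 was reached by 2 of the 33 (6.06%) and by 18.9% of the others. These are descriptions of 1 list with no test.

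Mycn and Mycl differed from Myc in this list. Mycn, on chromosome 12 from 12936093 to 12941836, had no peak within 50 kb. The nearest lay 197.0 kb away (signal value 2.94). Mycl, on chromosome 4 from 122995588 to 123002490, had 2 peaks within 50 kb, both in its neighbour Trit1, a tRNA-modifying enzyme. One was at an end of Trit1 (signal value 4.34), 14.2 kb from Mycl, and the other in its body (2.60, q of 0.0604). At unknown depth this shows no called peak, not the absence of acetylation.

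**Figure D4:**
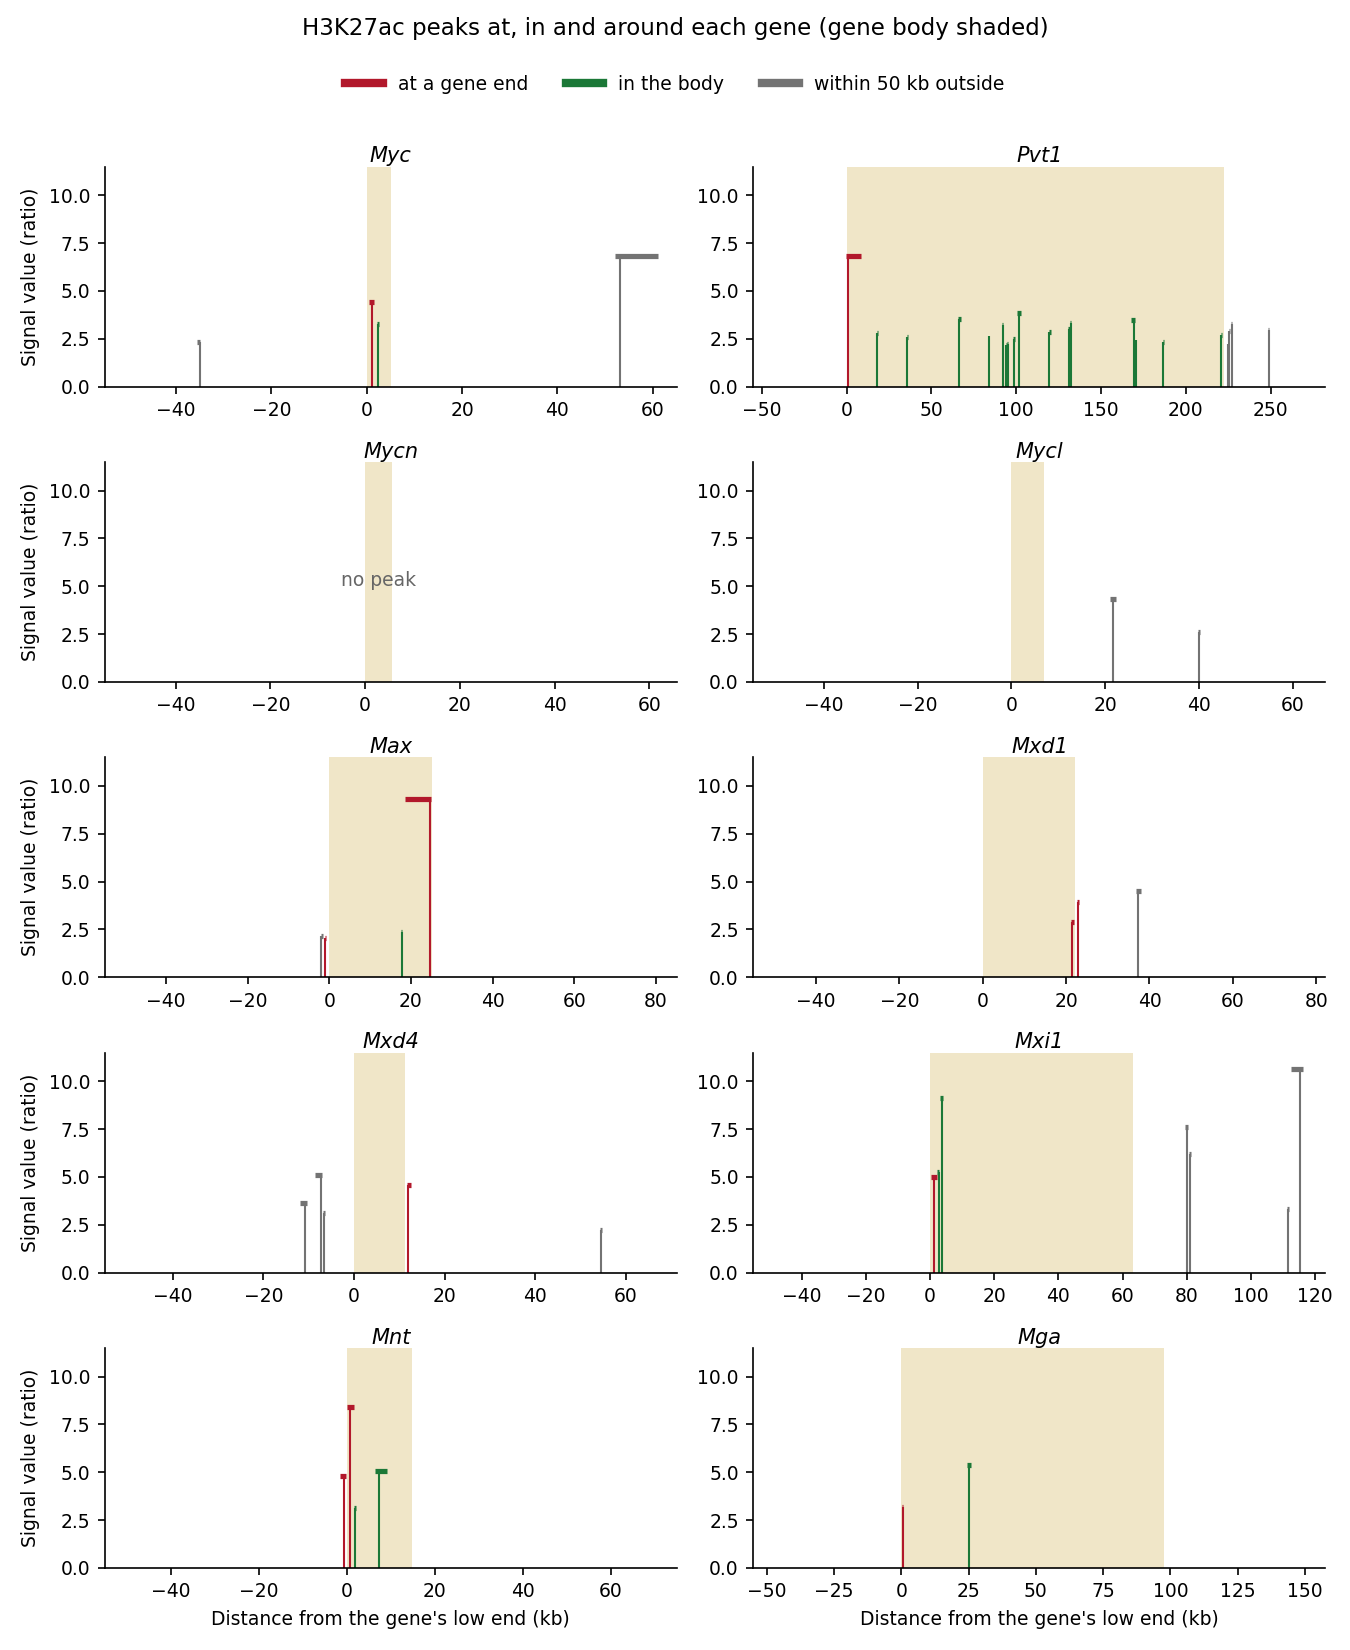
Signal value (enrichment ratio) of each peak against its distance from the gene's low end in kb, for the 10 genes; the gene body is shaded, horizontal bars give peak widths and colours give the class of the peak. Max, Mnt and Mxi1 have peaks above 8 at or just inside the gene, whereas Mycn has none.

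The promoters of these genes bear on where the peaks lie. The RefSeq table (build GRCm38.p6) holds 10 promoters of 8 of the 10 genes, each 300 bases long, from 250 bases before to 50 bases after a start. Myc and Pvt1 were not matched. A peak lay within 1 kb of the start for 6 of the 10 promoters, beside 28.5% of the 32851 promoters of the table. The E-box CACGTG, which reads the same on both strands, was searched, since Myc and Max bind it. It was found in 3 of the 10 promoters, those of Max, Mnt and Mxd4, each of which had a peak within 1 kb. The share was 7.15% of all promoters and 10.5% of the 9353 with a peak within 1 kb of the start. These 3 are shown because they join the E-box and a nearby peak, at chr12:76962199-76962498 (minus strand), chr11:74830674-74830973 (plus strand) and chr5:34187661-34187960 (minus strand). Capitals mark the E-box.
Max: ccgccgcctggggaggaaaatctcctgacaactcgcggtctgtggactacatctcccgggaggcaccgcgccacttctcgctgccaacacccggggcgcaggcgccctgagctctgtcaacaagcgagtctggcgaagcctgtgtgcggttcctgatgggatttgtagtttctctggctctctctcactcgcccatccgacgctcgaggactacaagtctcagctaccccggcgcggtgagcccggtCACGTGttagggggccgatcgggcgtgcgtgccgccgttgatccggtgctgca
Mnt: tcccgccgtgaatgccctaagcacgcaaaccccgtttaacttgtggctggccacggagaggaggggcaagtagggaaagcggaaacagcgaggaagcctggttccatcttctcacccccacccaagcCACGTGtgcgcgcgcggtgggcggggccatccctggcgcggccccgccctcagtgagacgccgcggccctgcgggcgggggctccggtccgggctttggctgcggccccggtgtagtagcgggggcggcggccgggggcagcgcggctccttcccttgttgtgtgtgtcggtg
Mxd4: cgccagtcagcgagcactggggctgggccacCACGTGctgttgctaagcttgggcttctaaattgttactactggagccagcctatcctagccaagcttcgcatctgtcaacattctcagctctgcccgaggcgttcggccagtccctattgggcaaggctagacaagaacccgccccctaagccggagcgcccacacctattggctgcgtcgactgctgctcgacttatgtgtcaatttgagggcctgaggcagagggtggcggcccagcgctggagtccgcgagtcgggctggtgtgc
The first base of the E-box lay 3 bases before the start in Max, 123 before it in Mnt and 219 before it in Mxd4. A match is a description of these letters and not of binding.

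The promoters of Mycn (chr12:12941787-12942086, minus strand) and Mycl (chr4:122995681-122995980, plus strand) are shown for contrast, since neither gene had a peak at an end or in its body. They hold no CACGTG, and so no capitals. The promoters of Mga and Mxd1 and the first of Mxi1 also lack it, yet each had a peak within 1 kb.
Mycn: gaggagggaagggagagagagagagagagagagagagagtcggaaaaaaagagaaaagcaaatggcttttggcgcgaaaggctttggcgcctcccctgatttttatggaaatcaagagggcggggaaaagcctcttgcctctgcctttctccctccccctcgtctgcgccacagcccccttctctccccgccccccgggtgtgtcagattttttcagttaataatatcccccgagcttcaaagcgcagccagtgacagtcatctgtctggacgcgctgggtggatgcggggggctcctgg
Mycl: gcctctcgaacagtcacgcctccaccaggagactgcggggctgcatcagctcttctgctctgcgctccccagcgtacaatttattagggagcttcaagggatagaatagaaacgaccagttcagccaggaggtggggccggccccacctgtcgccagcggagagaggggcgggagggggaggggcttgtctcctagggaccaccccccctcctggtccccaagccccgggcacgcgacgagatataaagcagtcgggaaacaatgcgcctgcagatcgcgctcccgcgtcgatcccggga
The promoters of Mycn and Mycl had 14 and 22 CpG dinucleotides in 300 bases. The median was 22 over promoters with a peak within 1 kb and 4 over those without. When promoters were ranked by CpG and split into 4 equal bins, 62.0% of the richest bin and 37.0% of the next had such a peak. By this count both sequences were richer in CpG than most promoters without a peak, at percentiles 64.5 and 77.7 of all promoters.

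Max, the shared partner, had the strongest end peak of the network. It ran over 6466 bp on chromosome 12 from 76955781 to 76962246, with a signal value of 9.34, a −log10 q of 31.3 and a width at percentile 99.4 of the list. Max is read towards lower coordinates, so the peak began at the start and extended into the gene, with its summit 432 bases past the start. The E-box shown above sits at the upstream edge of this peak. The other 3 peaks at Max were weak. They had signal values of 2.03 at the far end of the gene, 2.14 just beyond it and 2.35 in the body, all with a q above 0.05.

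Mnt, a widely expressed repressor that competes with Myc for Max, came second. Its 4 peaks lay on chromosome 11 at or in the gene. The strongest, from 74830946 to 74832351, reached a signal value of 8.39 and a −log10 q of 25.3, with its summit 531 bases past the start. A second, from 74829240 to 74830654 (signal value 4.80), had its summit 776 bases before the start. Most of the promoter, the E-box included, lay in the short space between them. Inside the gene followed a weak peak (3.14) and one of 2527 bp, from 74837312 to 74839838 (5.05).

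Mxi1, another repressive partner of Max, on chromosome 19, had 3 peaks close together at its low end, where the gene starts. Their signal values were higher further into the gene, from 5.02 (53310510 to 53312196) over 5.26 (53312396 to 53312975) to 9.12 (53313225 to 53314287, −log10 q 30.3). All 3 also lie in the lncRNA gene Gm30541, so the signal cannot be given to Mxi1 alone. The table holds 3 promoters of Mxi1. The first, at 53310256 to 53310555, has 17 CpG and touches the first peak. Starts 2 and 3 lie further into the gene, with 21 and 49 CpG, and had no peak within 1 kb. The third, chr19:53329445-53329744 (plus strand), is shown because its CpG count stands at percentile 99.1 of all promoters and yet no peak was called there.
Mxi1, start 3: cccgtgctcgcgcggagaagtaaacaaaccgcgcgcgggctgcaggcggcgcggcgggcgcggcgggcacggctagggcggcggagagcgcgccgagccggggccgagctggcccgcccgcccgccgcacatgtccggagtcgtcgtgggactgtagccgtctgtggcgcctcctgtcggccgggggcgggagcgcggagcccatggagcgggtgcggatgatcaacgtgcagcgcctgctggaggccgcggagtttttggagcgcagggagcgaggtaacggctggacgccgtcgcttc

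Beyond Mxi1, peaks with signal values of 7.59 and 6.21 lay at the end of Smndc1, a splicing factor gene. The strongest peak around any of the 10 genes came after it, from 53422573 to 53426482. It was 3910 bp wide with a signal value of 10.6 and a −log10 q of 38.6, at percentile 98.3 of the list. Its summit lay 52.0 kb past Mxi1 and at no gene end. It belonged to a cluster of 5 distal peaks from 53421293 to 53447527 that ranked 244 of 8972, within the top 2.72%. This list does not show which gene such a cluster serves.

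Mxd1 and Mxd4 are Max partners linked to differentiation. At Mxd1, on chromosome 6, peaks flanked the promoter on both sides and left it uncovered. The one upstream, from 86669647 to 86670246, reached a signal value of 3.94, with its summit 757 bases before the start. The one downstream, from 86668228 to 86668835, reached a signal value of 2.87, with its summit 615 bases past the start. Such an uncovered promoter with a peak within 1 kb on each side was found for 1.26% of all promoters and for 4.44% of those with a peak within 1 kb of the start. At Mxd4, on chromosome 5, the only end peak lay upstream of the start, from 34188218 to 34189070 (signal value 4.56), with its summit 712 bases before it, and none lay in the gene. The strongest peaks nearby lay at ends of neighbouring genes. Snrnp27, a spliceosome gene, had a signal value of 4.52 near Mxd1. A peak shared by the ends of Poln and Haus3 had one of 5.11 near Mxd4.

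Mga, the largest protein of the network and the scaffold of a Polycomb complex, had the weakest end peak, on chromosome 2 from 119872740 to 119873282 (signal value 3.18, −log10 q 2.68). A stronger peak lay inside the gene as drawn in the table, from 119896924 to 119898363 (5.35, −log10 q 10.6). Its summit was 376 bases past the promoter start that RefSeq gives. By that start, Mga stood just above Mxi1 (5.02) rather than last.

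Other genes of the pathway were taken from lists. Of the parallel branch around Mlx, which answers to glucose, Mlxip (signal value 5.66) and Mlx (3.54) had end peaks, and Mlxipl and the fourth gene added to the list, Mxd3, had none. The network list as a whole thus had 10 of 14 genes with one. Of 26 Myc cofactors and regulators, 22 had an end peak, with a median strongest signal value of 4.36. With a −log10 q of at least 5 the count was 12 of 26, beside 24.0% of all protein-coding genes, and with a signal value of at least 4 it was again 12, beside 23.2%. The strongest were at Ccnt1, a subunit of the elongation kinase P-TEFb (11.8), and at Kat5, a histone acetyltransferase (11.6). Zbtb17, Ruvbl2, Skp2 and Huwe1 had none at an end. Inside the gene, Skp2 had 3 peaks, Huwe1 had 2, Ruvbl2 had 1 and Zbtb17 had none.

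Of 28 genes known as Myc targets, 21 had an end peak, with a median of 5.94. The strongest were the shared peak of Hspd1 and Hspe1, the mitochondrial chaperonins (11.4), and that of the translation factor Eif4a1 (10.7). The genes without one were Npm1, Rrp9, Ldha, Shmt2, Ccnd2, Tert and Bop1. Of these, Npm1, Ldha and Ccnd2 each had 1 peak inside the gene. All 3 lists hold genes that most dividing cells use, so their counts stand beside the 36.2% of all protein-coding genes as a description only.

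**Figure D5:**
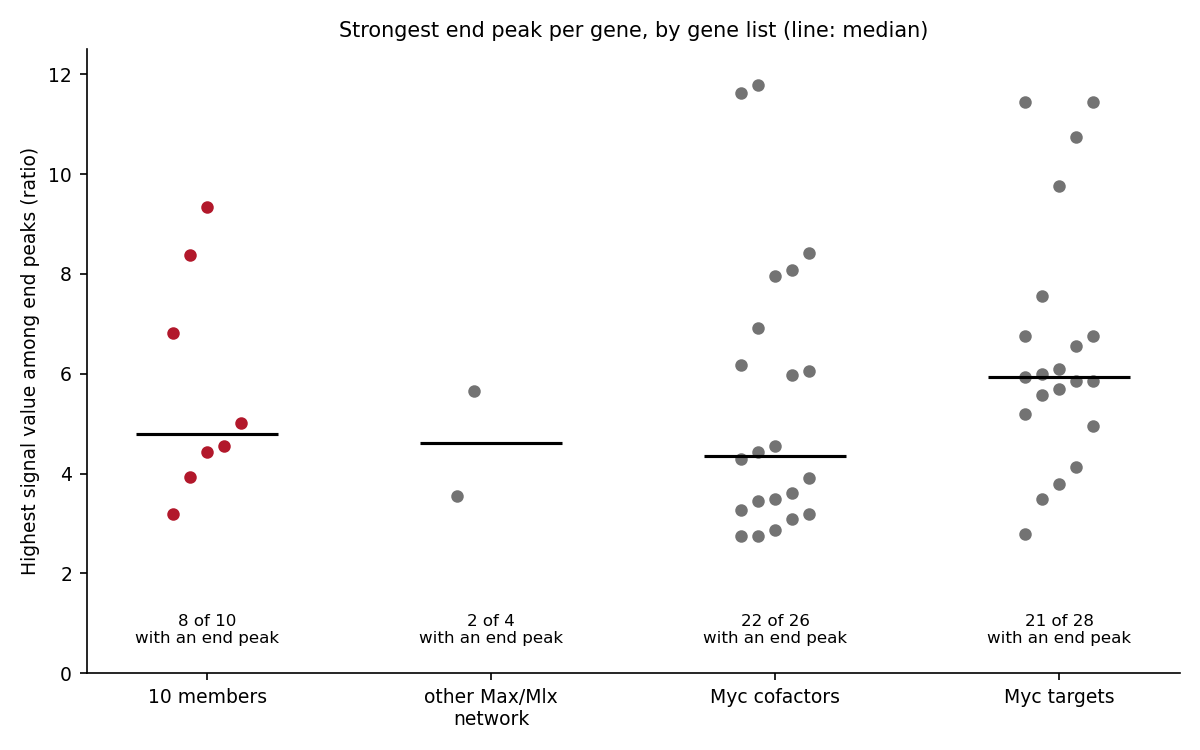
Highest signal value (enrichment ratio) among the end peaks of each gene, by list, with the median as a line and the number of genes with an end peak below. The medians over genes with an end peak are 4.79 for the 8 of the 10 genes, 4.36 for cofactors and 5.94 for targets.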

How the data were processed

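H3K27ac ChIPmentation of 4 libraries and 1 input library was deposited by the authors as 1 peak list without a header. BWA and MACS2 and the build mm10 are named in the submitters' processing notes, without versions or settings. Per the order of the deposited columns, since no header names them, the values were read as the authors' score, the signal value (an enrichment ratio over background), −log10 p and −log10 q, and the summit. The score was not used. The depth is unknown.

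Gene positions came from a RefSeq table of GRCm38.p6 with 21887 protein-coding genes. Its ends carry no strand, and strands were read from the RefSeq promoter table, except those of Myc and Pvt1, which are background knowledge. Of all summits, 32.5% lay within 1 kb of a protein-coding gene end, and 5.36% and 5.55% did so after moves of 50 kb down and up. Peaks counted by any overlap, and tiles, gaps and segments by summit. A distal peak had its summit over 1 kb from such an end. Coordinates are 1-based. Python 3.11.15, pandas 2.3.3 and numpy 2.4.6 were used, with functions tested on simulated data.

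The genes, lists and rules were chosen with earlier results of these data known. Named were the 10 genes, genes in or bordering the window or at nearby peaks, listed genes without a peak and the 3 strongest, and the 3 fullest gaps. Some listed genes count in their list's totals but are not reported here by name. Likeness of pattern could not be ranked in 1 list. Other names (Gm30541, Cd48 and Slamf1, and the segments of the heavy chain) were added after values were seen. Alternatives were stricter thresholds, windows of 2.5 kb, summits in place of overlap, a reach of 100 kb, merging within 1 kb, and other joining distances and intervals.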

Additional observations from a re-analysis of the deposited data

How the results depend on the processing

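Stricter thresholds lowered the counts most. At −log10 q of 5 or more there remained 12 peaks at or in the 10 genes, 18 of the 51 at, in or within 50 kb of them, 4 in the Myc window, 3 in the gap past Myc, 1 in the far interval, 4 clusters and 12 of the 26 cofactors. For signal values of 4 or more the counts were 11, 17, 4, 3, 1, 4 and 12, in the same order. The gap ranked 7 under both. With a q of at most 0.05, the window held 29 peaks, the gap 27 and the far interval 9. Without Pvt1 the gap held 25. The last alternative and the gap ranks under other thresholds were chosen after seeing the data. The stricter lists hold fewer peaks by construction. For the signal cut of 4, values of 3.94 and 4.25 stood at percentiles 65.0 and 70.3 of all peaks. The share of all peaks with a −log10 q of 5 or more is not given here, so those counts have no such share beside them. Of 47 recomputed counts and gap ranks, 27 stayed within 1.5 times the reported value and 20 moved.

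The number of genes of the network with an end peak ranged from 6 to 8. Mga was lost at −log10 q of 5 or more. Mga and Mxd1 were lost at signal values of 4 or more, and Myc and Mxi1 when the summit had to lie in the window. Leaving out single libraries was not possible. No paired analysis was possible because the deposited values cover the libraries together. The unknown depth limits what the absence of a peak at Mycn, Mycl or the gasdermin genes shows.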
